A study of Rattus norvegicus with 6 samples.

Results

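Nos1, which encodes neuronal nitric oxide synthase, and Th, which encodes tyrosine hydroxylase, were measured by RNA sequencing in the paraventricular nucleus of male Holtzman rats, a laboratory stock. The 2 genes were taken by identifier, Nos1 as ENSRNOG00000001130 and Th as ENSRNOG00000020410, from a count table of 32402 rat genes, of which 16344 had enough counts to be tested. Both were among the tested genes. One group was sodium depleted with furosemide, a diuretic that blocks salt uptake in the loop of Henle, injected at 10 mg/kg and followed by 24 h on a diet poor in sodium with distilled water to drink. The other group is labelled control, and the labels do not say what its rats received or ate. Each group held 9 rats, and each of its 3 libraries was made from the tissue of 3 rats pooled together, so the spread between libraries is a spread between pools and not between single animals. The design asked how transcripts of the nucleus stood after acute sodium loss. In the furosemide pools the mean level of Nos1 was 8.16% lower and that of Th 15.8% lower than in the control pools, and neither difference passed the threshold once all tested genes were allowed for.

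Nitric oxide synthase makes the diffusible gas nitric oxide from arginine, and the neuronal form is held near glutamate receptors, where calcium and calmodulin switch it on. The paraventricular nucleus is one of the hypothalamic sites richest in this enzyme, in magnocellular neurons that release vasopressin and oxytocin and in parvocellular neurons that reach the brainstem and spinal cord. There nitric oxide is known to restrain hormone release and sympathetic outflow. Tyrosine hydroxylase carries out the rate-limiting step of catecholamine synthesis, from tyrosine to L-DOPA. Some neurons within and around the nucleus contain it, whereas the dense noradrenergic fibres that enter the nucleus come from cell bodies in the brainstem, where nearly all of their Th transcript lies. Both enzymes need tetrahydrobiopterin as a cofactor.

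The upstream sequences of both genes are shown because each holds the same 2 motifs of activity-dependent transcription, the cyclic AMP response element bound by CREB and the AP-1 site bound by Fos and Jun proteins. They are the 250 bases before the transcript start listed by RefSeq for build GRCr8, written 5′ to 3′ along the gene, with matches to either motif in capitals. The Nos1 window is chr12:44371838-44372087 on the minus strand. It lies inside the annotated span of Nos1, a gene with several alternative first exons, so it belongs to a start within that span. The Th window is chr1:207508219-207508468, also on the minus strand.
Nos1: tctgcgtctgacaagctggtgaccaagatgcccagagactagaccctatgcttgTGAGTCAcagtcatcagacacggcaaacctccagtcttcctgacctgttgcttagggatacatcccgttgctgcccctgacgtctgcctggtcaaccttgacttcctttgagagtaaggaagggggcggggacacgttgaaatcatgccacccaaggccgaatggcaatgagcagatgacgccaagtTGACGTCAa
Th: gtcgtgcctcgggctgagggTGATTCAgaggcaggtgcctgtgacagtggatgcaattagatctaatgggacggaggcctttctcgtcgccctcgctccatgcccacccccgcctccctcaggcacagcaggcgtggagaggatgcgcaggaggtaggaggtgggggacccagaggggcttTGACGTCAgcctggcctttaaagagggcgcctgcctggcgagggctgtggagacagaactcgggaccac

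Upstream of Nos1 the cyclic AMP response element TGACGTCA covered the bases from 9 to 2 before the start, and an AP-1 site, TGAGTCA, lay 196 to 190 bases before it. Upstream of Th the same TGACGTCA lay 69 to 62 bases before the start, and the AP-1 site TGATTCA 230 to 224 bases before it. The searches used TGACGTCA and TGANTCA, which do not overlap here and read the same on both strands. Of 33469 RefSeq upstream windows of the same length, 531 (1.59%) held TGACGTCA, 2122 (6.34%) held TGANTCA and 26 (0.0777%) held both. The motifs were picked with the Th promoter in mind, where both are textbook elements, and after both windows had been read, so these shares describe the motifs and test nothing about the genes. Of the other motifs searched on both strands, the GC box GGGCGG was found upstream of Nos1, 73 to 68 bases before the start, and not of Th. It occurs in 30.5% of all windows. The glucocorticoid receptor half-site TGTTCT (17.5% of windows) and the TATA box TATAAA (12.9%) were found in neither window. The search took exact letters only, so variants such as the tttaaa in the Th window were not counted. No binding was measured in these samples, and a match describes the letters only.

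**Figure D1:**
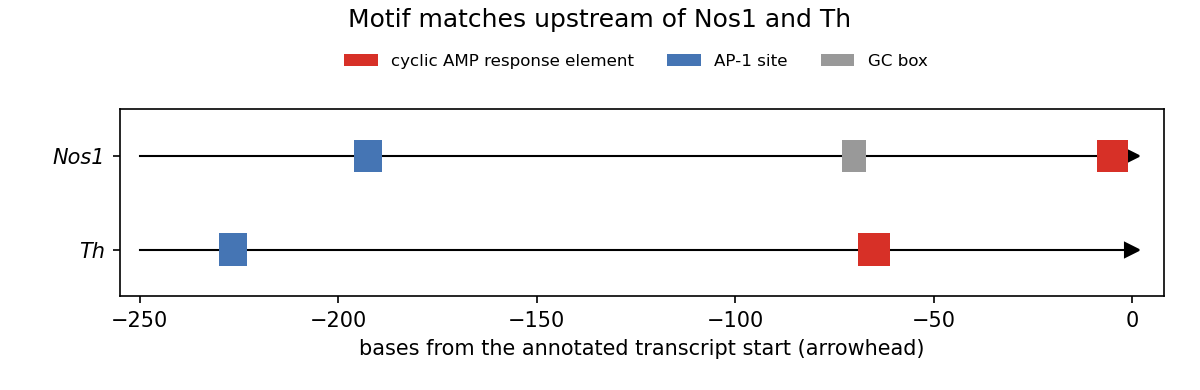
Positions of motif matches in the 250 bases upstream of the RefSeq transcript starts of Nos1 and Th; the horizontal axis is the distance from the start in bases and coloured boxes are matches to scale. Both windows hold an AP-1 site at their far end and a cyclic AMP response element nearer the start, at 69 to 62 bases for Th and 9 to 2 bases for Nos1.

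The 3 control libraries held 20911950 to 21669388 counts and the 3 furosemide libraries 21950410 to 22495415, so every furosemide library was the deeper. Levels are therefore given as CPM, the count divided by a TMM-adjusted library total and brought to a common total. The labelled tissue could not be checked against marker genes of the nucleus or of neighbouring regions, because the table names genes by identifier alone. For the same reason the other genes of nitric oxide signalling and of catecholamine synthesis, transport and reception, 32 and 31 symbols listed for this purpose, were not analysed here.

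Nos1 was an abundant transcript, with a mean CPM above that of 94.7% of the tested genes and 0.0204% of all counts. In the control libraries it stood at 211, 220 and 207 CPM, from 4550, 4758 and 4291 counts. In the furosemide libraries it stood at 190, 195 and 201 CPM, from 4271, 4267 and 4482 counts. All 3 furosemide pools lay below all 3 control pools on this scale, with 5.98 CPM between the lowest control and the highest furosemide library, which is 2.81% of the control mean. The raw counts of the groups overlapped, and the furosemide libraries were the deeper ones.

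Nos1 averaged 213 ± 6.98 CPM over control pools and 195 ± 5.22 CPM over furosemide pools (SD, n = 3 each). The log2 fold change was -0.12 (SE 0.04), a level 8.16% lower after furosemide, with a 95% confidence interval from 3.13% to 12.9% lower. This difference did not pass the threshold, with an unadjusted p of 0.00416 and an adjusted p of 0.386 in the edgeR quasi-likelihood test with Benjamini-Hochberg adjustment over all 16344 genes. The interval is not adjusted for the number of genes, so its lying below 0 is the unadjusted p stated in another form. It refers to the average over the pooled tissue and sets no bound for single cell types within it.

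Th was a transcript of middling abundance, above 58.1% of tested genes in mean CPM, with 0.00284% of all counts. The control libraries stood at 32.2, 30.7 and 29.7 CPM, from 695, 663 and 616 counts. The furosemide libraries stood at 23.0, 27.0 and 27.9 CPM, from 517, 592 and 624 counts. Again each furosemide pool lay below each control pool, and the lowest value belonged to furosemide library 1. The distance between the nearest libraries of the groups was 1.73 CPM, or 5.60% of the control mean, and the raw counts overlapped, with 616 in control 3 and 624 in furosemide 3.

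Th averaged 30.9 ± 1.29 CPM over control pools and 26.0 ± 2.62 CPM over furosemide pools (SD, n = 3 each). The log2 fold change was -0.25 (SE 0.07), a level 15.8% lower, with a 95% confidence interval from 6.13% to 24.4% lower. The unadjusted p was 0.00439 and the edgeR adjusted p 0.395, so this difference did not pass the threshold either. Leaving out furosemide library 1 gave a log2 fold change of -0.17 and an unadjusted edgeR p of 0.0267, the value nearest to 0 among the omissions of 1 library. In bulk tissue, fewer Th-containing or Nos1-containing cells in the dissected piece and less transcript per cell cannot be told apart. The same holds for treatment and any batch of dissection or sequencing, for which the labels give no dates.

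**Figure D2:**
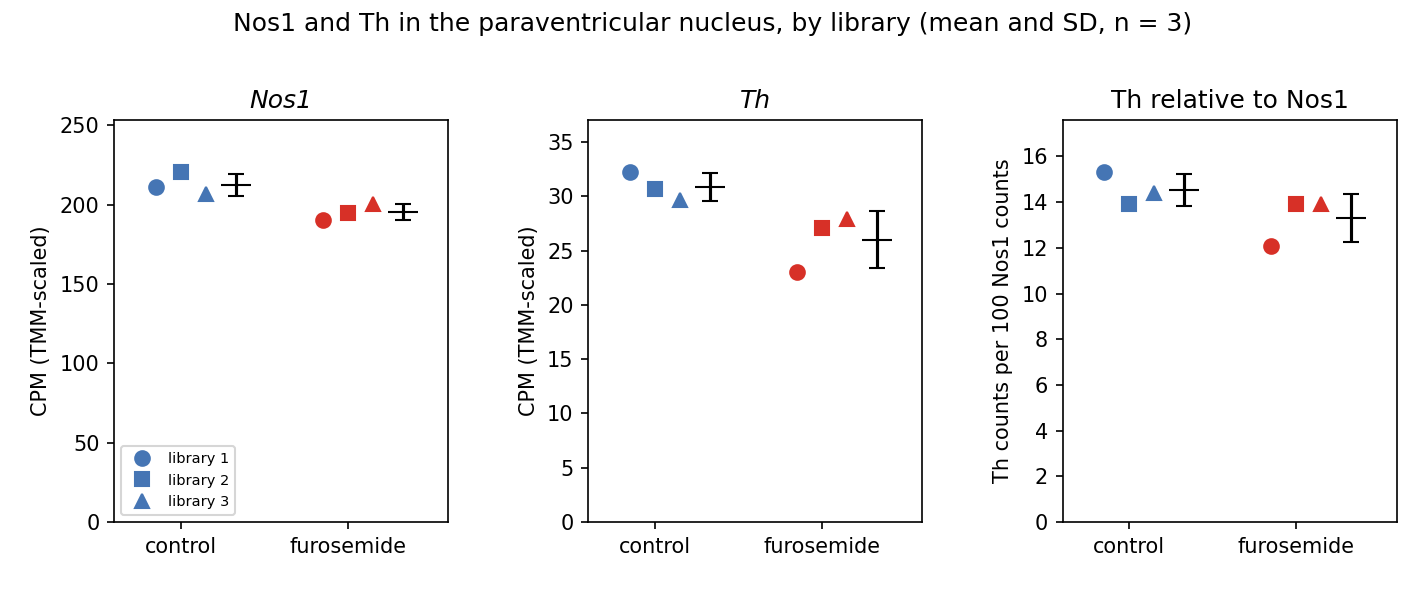
Level of Nos1 and of Th in CPM, and Th counts per 100 Nos1 counts, in each library of the control and furosemide groups; every vertical axis starts at 0, symbols are libraries, and the black marks are the mean and SD over 3 libraries. For both genes the 3 furosemide libraries lie below the 3 control libraries, by a small part of the level, and furosemide library 1 is the lowest for Th.

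Replicate pools were close to each other for Nos1. Its coefficient of variation was 3.28% over control libraries and 2.68% over furosemide libraries, where counting error alone would give 1.49% and 1.52%. For Th the control libraries varied by 4.17%, near the 3.90% of counting error. Its furosemide libraries varied by 10.1%, against 4.17% from counting error, and most of that spread came from library 1 at 23.0 CPM against 27.0 and 27.9 CPM. The biological coefficient of variation fitted over all libraries, which leaves counting error out, was 3.19% for Nos1 and 5.56% for Th. The median over the tested genes was 5.19%. Nos1 was among the steadier genes by this measure, with 11.1% of genes lower, and Th was near the middle, with 54.9% lower. These ranks run over genes of every level, and genes of like abundance were not compared.

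Against all tested genes, the 2 differences were larger than the median in absolute log2 fold change and near the front in order of p. In the edgeR quasi-likelihood test no gene (0 of 16344, 0%) passed an adjusted p of 0.05, while 1322 (8.09%) had an unadjusted p under 0.05, and 698 (4.27%) had such a p and were lower after furosemide. On the same comparison and genes the edgeR exact test called 45 and limma-voom 0. DESeq2, run on all genes with any count and so on a different set, called 40. Neither Nos1 nor Th was among the calls of any. For Nos1 175 genes had a smaller p, and for Th 180 had. An absolute log2 fold change at least as large as that of Nos1 was found in 24.6% of tested genes, and one at least as large as that of Th in 8.50%. The median over all tested genes was 0.06 in absolute size and 0 with its sign. Control and furosemide libraries did not overlap in CPM for 2208 genes (13.5%), and 1114 (6.82%) did so with the lower values after furosemide. Nos1 and Th are 2 of those 1114. For a single gene the two-sided exact permutation test over the 6 libraries gave p = 0.1 for Nos1 and p = 0.1 for Th, the smallest that 3 against 3 allow.

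Counting error is larger for weakly expressed genes, so the 2 genes were also set beside genes at or above their own level. Of the 858 other genes with a mean CPM of at least that of Nos1, 13 had a log2 fold change as low or lower. Of the 6839 other genes with a mean CPM of at least that of Th, 15 did. These counts describe where the 2 genes lie in the plot of all tested genes and are not a test. They cover the lower direction only, and genes above the level of Nos1 or Th have the smaller relative counting error.

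**Figure D3:**
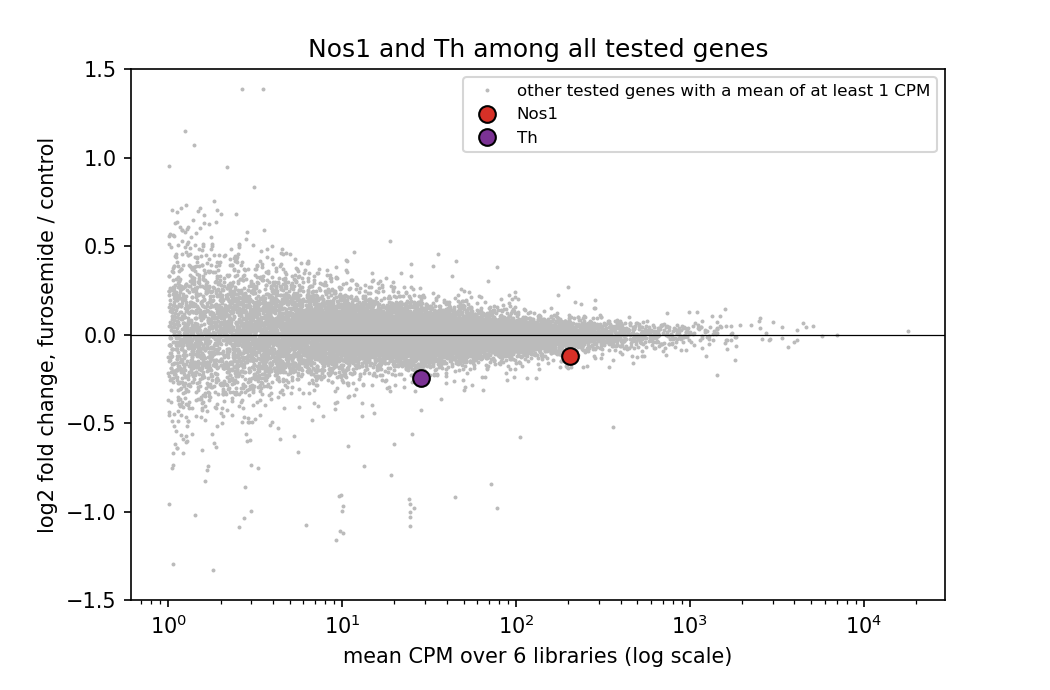
Log2 fold change, furosemide over control, against mean CPM over 6 libraries on a log axis, for 15191 tested genes averaging 1 CPM or more (1 lies outside the vertical axis). Nos1 at -0.12 and Th at -0.25 lie at the lower edge of the cloud at their levels, and many weakly expressed genes lie farther from 0.

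The relation between the 2 transcripts was examined within each library, where the scaling cancels out. No transcript lengths of the annotation behind the counts were at hand, so this ratio of counts compares libraries and does not say which gene gave more molecules. There were 15.3, 13.9 and 14.4 Th counts per 100 Nos1 counts in the control libraries. The furosemide libraries had 12.1, 13.9 and 13.9. Furosemide 2 and furosemide 3 thus stood at the value of control 2, and furosemide 1 stood lowest. The ratio averaged 14.5 ± 0.685 over control pools and 13.3 ± 1.04 over furosemide pools (SD, n = 3 each), a difference of -0.13 on the log2 scale. An exact permutation test of this difference (two-sided) returned p = 0.1, the smallest possible here, which rested on a difference between control 2 and furosemide 3 below the digits given. After thinning to equal depth the exact p was 0.3. With control 1, 2 or 3 left out the difference was -0.09, -0.16 and -0.14, with an exact p of 0.4, 0.3 and 0.4. With furosemide 2 or furosemide 3 left out the difference was -0.16 each time, with an exact p of 0.1. Without furosemide 1 the difference was -0.06 with an exact p of 0.2. The larger percentage difference of Th than of Nos1 therefore depended on single pools, on furosemide 1 most of all and then on control 1. Without furosemide 1 the log2 fold change was -0.17 for Th and -0.10 for Nos1.

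The library profiles of Nos1 and Th over the 6 libraries were alike in sign and different in detail. Among controls, Nos1 was highest in control 2 and Th in control 1. Among furosemide pools both genes were lowest in furosemide 1 and highest in furosemide 3. After each gene was centred on its own mean log2 CPM, the root mean square difference between the 2 profiles was 0.10. Of 10655 candidate genes averaging 10 CPM or more, 60.0% were nearer to the profile of Nos1 than Th was, and 1.52% were nearer to the profile of Th than Nos1 was. A flat profile such as that of Nos1, whose log2 levels spanned 0.21, has many near neighbours, and the profile of Th spanned 0.48.

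The gene nearest in profile to Nos1 was ENSRNOG00000019698, at a root mean square difference of 0.018 over 6 libraries. It stood at 140, 147 and 136 CPM in controls and at 130, 133 and 134 CPM after furosemide, with a log2 fold change of -0.10 (edgeR adjusted p = 0.527). Like Nos1, it was highest in control 2 and its groups did not overlap. The gene nearest to Th was ENSRNOG00000012137, at a root mean square difference of 0.041. Its levels were 12.9, 12.8 and 12.1 CPM in controls and 9.26, 11.8 and 11.5 CPM after furosemide, with a log2 fold change of -0.22 (edgeR adjusted p = 0.611). It shared with Th the low value in furosemide 1. Each gene was picked for a profile like that of Nos1 or Th in these libraries. Such likenesses therefore come from the choice and are no further result. With candidates down to a mean of 1 CPM the nearest genes were others, so these neighbours depend on the level asked for. No source used here pairs these identifiers with symbols.

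Both differences kept their size over other scalings, filters and tests. The log2 fold change of Nos1 ran from -0.13 to -0.12 and that of Th from -0.26 to -0.23 when no library was left out. Thinning every library to the smallest total, which removes the difference in depth, gave -0.12 for Nos1 and -0.23 for Th, and the thinned counts of the groups did not overlap for either gene. Under TMM, RLE and upper-quartile factors and library size alone the CPM of the groups did not overlap for either gene. The direction was the same in all 18 alternatives for each gene, which groups that do not overlap make nearly certain. In none of these alternatives (0 of 18 for each gene) did Nos1 or Th pass the adjusted threshold of 0.05, and in all 18 the unadjusted p was below 0.05 for both.

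**Figure D4:**
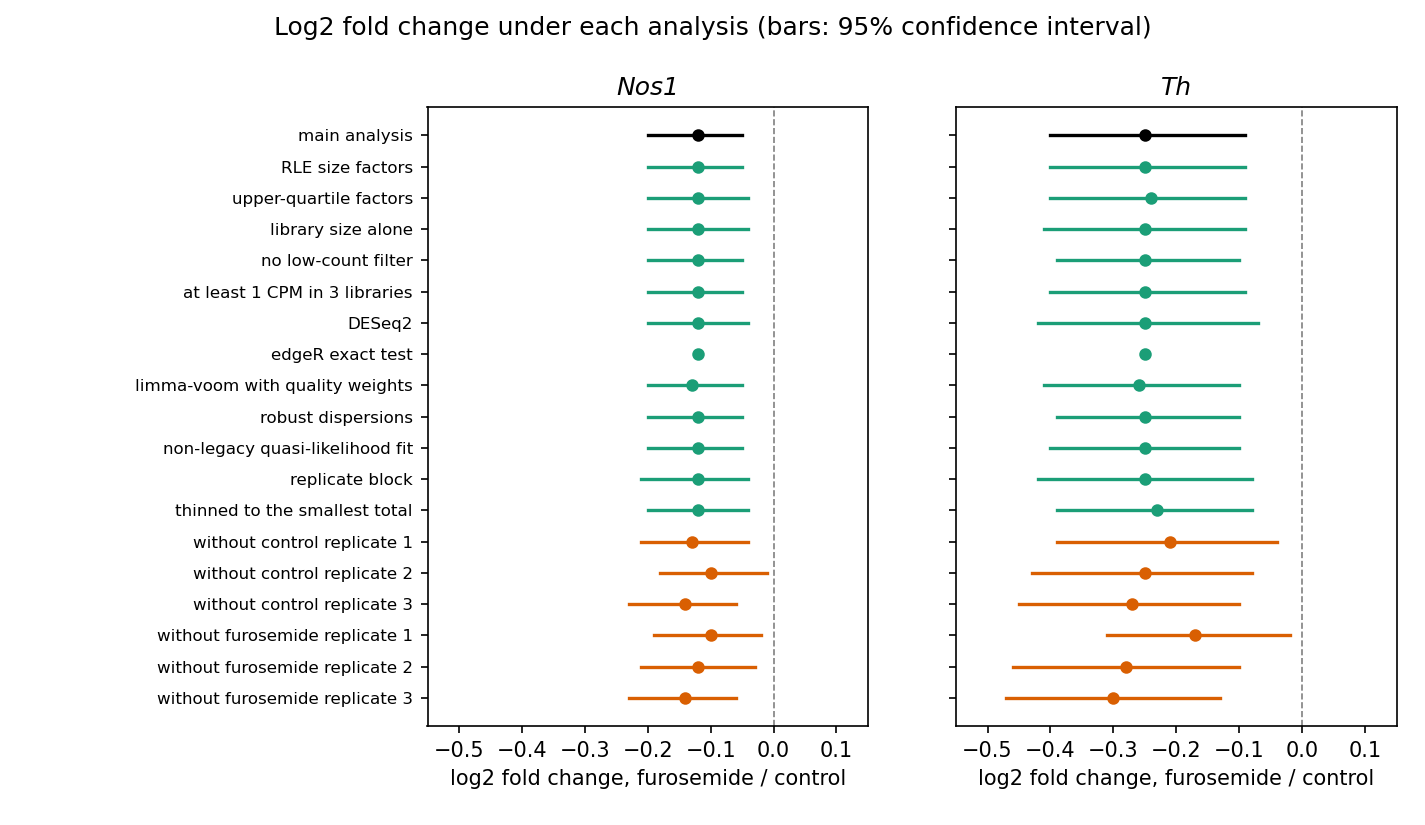
Log2 fold change of Nos1 and Th, furosemide over control, in the main analysis (black), under other settings (green) and with 1 library left out (orange); points are estimates and bars unadjusted 95% confidence intervals, with none for the edgeR exact test. The estimates lie between -0.14 and -0.10 for Nos1 and between -0.30 and -0.17 for Th, nearest to 0 for Th without furosemide 1.

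How reads were assigned limits these values in one respect. In the RefSeq table for GRCr8, 2 further loci, LOC120095990 and LOC120095991, overlap the span of Nos1, and no other listed locus overlaps Th. The strand of those loci was not compared with that of Nos1. The sources used here do not say whether the counting used strand, so reads from those loci and from Nos1 may not be told apart. Whether the annotation behind the counts holds these loci was not examined.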

How the data were processed

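Per the labels' protocols, RNA was extracted with QIAzol and RNeasy columns, and libraries came from a TruSeq mRNA kit, which selects polyadenylated RNA. The deposited table holds raw counts per gene, whole numbers in 6 columns. Tools named, per the submitters' processing notes, are HTSeq, TopHat, FastQC and edgeR. Their versions, the genome build and the annotation were not stated in the sources used here. The reference table of 47357 genes lists no Ensembl identifiers (0), so only Nos1 and Th, paired with their identifiers beforehand, carry names, and the list counts were not run.

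In R 4.3.3, genes were kept by filterByExpr, scaled by TMM factors (0.994 to 1.01) and tested with edgeR 4.0.16 (legacy quasi-likelihood fit, treatment as the only term). Standard errors are the log2 fold change over the square root of F. Alternatives used DESeq2 1.42.0 and limma 3.58.1. Profiles used log2 CPM with a prior count of 0.5. Nothing in the labels says the pools are more than separate samples of a group, so differences were weighed against the spread between pools. The edgeR fit estimates that spread for each gene with the other tested genes drawn in. Genes named were Nos1, Th and the gene nearest to each in profile with a mean of at least 10 CPM. The members, lists and motifs were chosen with earlier results of these data known. The fit was also run on simulated data, and the outcome is not reported here. Libraries were no copies: pairs differed by 1.69 to 2.35 times sampling noise (median squared difference, 15 pairs).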

Additional observations from a re-analysis of the deposited data

How the results depend on the processing

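For Nos1 and Th the direction and the side of the adjusted threshold were the same under all 18 alternatives. Leaving out 1 library gave log2 fold changes of -0.14 to -0.10 for Nos1 and -0.30 to -0.17 for Th. Adjusted p ran from 0.263 to 0.685 for Nos1 and from 0.228 to 0.654 for Th. The difference in the ratio of Th to Nos1 counts was -0.12 after thinning (exact permutation p = 0.3) and -0.16 to -0.06 with 1 library left out, nearest to 0 without furosemide 1. The number of genes called was 0 in the edgeR quasi-likelihood test, 45 in the exact test and 4 with robust dispersions. It was 28 without a low-count filter and 40 in DESeq2, which was also run without that filter. The cause of these differences was not tested. The number called was 0 to 17 with 1 library left out, 17 without control 1 and 1 without control 3. With a replicate block 1 gene passed. Nos1 then had an adjusted p of 0.521 and Th 0.510. Deviations from the group means correlated at -0.02, -0.01 and -0.09 between libraries 1, 2 and 3 of the groups. Of 6 libraries, 0 correlated best with its own number. No pairing by number was thus visible over all tested genes, and the numbers are not read as pairs. A link limited to a few genes would not show in such correlations. The nearest genes in profile were different ones at a minimum of 1 CPM. Depth limited Th more than Nos1, with a counting error of 3.79% to 4.40% per library against 1.45% to 1.53%. List counts were not run, for lack of symbols.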
